A study of Mus musculus with 16 samples.

Results

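The interferon regulatory factors (IRFs) described here are the 8 genes Irf1, Irf2, Irf3, Irf4, Irf5, Irf7, Irf8 and Irf9, taken by symbol from the 55487 genes of the counts table of mouse bone marrow-derived macrophages (BMDMs, macrophages grown in culture from bone marrow). RNA-sequencing covered 16 samples in 6 groups. All cells came from wild-type (WT) Balb/c mice aged 8 weeks and were serum starved before treatment. DMEM (n = 2) was medium without tumor factors. CM (n = 3) was conditioned medium of 4T1 cells, a mouse mammary tumor line. DMEM + Rux (n = 3) and CM + Rux (n = 3, labelled 4 h) also held ruxolitinib, an inhibitor of the kinases JAK1 and JAK2, given at 0.5 μM with CM. Its dose in DMEM + Rux is not stated in the sources used here. CM + Rux + IKK-16 (n = 3) held in addition 0.8 μM IKK-16, an inhibitor of the IKK kinases that activate NF-κB. A further group of CM + Rux (n = 2) is labelled 2 h. What that time refers to is not stated in the sources used here, so these samples were kept apart.

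IRFs are transcription factors that share a DNA-binding domain and recognise interferon-stimulated response elements (ISREs). IRF3 and IRF7, once phosphorylated by the kinases TBK1 and IKKε, switch on interferon genes, and IRF9 joins STAT proteins in ISGF3, the complex that carries the interferon signal from JAK kinases to ISREs. IRF1 activates interferon-responsive genes that IRF2 can hold down at the same elements. IRF4 and IRF8 bind DNA together with partners such as PU.1 (Spi1) or BATF and JUN proteins and act in the development and polarisation of macrophages and dendritic cells, while IRF5 drives inflammatory cytokine genes downstream of Toll-like receptors.

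The samples held between 18449388 and 46215853 fragments counted on genes. Macrophage markers were high throughout, with a summed level of 40330 to 57240 CPM over 9 of 9 markers, where CPM is the count of a gene scaled to a common library size adjusted by relative log expression (RLE). Markers of other cells were low, with summed levels of at most 3.24 CPM for neutrophils, 1.23 for B cells, 0.0552 for T and NK cells, 1.45 for epithelial cells and 20.9 for fibroblasts. The T and NK markers Cd3g and Cd8a had no count in any group. Nothing in the labels says whether replicates came from separate animals or cultures, so p-values measure the spread between these samples, which may be technical.

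All 8 genes (8 of 8) passed the filter of more than 1 CPM in at least 2 samples. To compare the genes with each other, levels were divided by exon length in kilobases (CPM per kb). On this scale Irf5 was the most abundant member in all 6 groups, from 98.5 ± 2.68 CPM per kb in DMEM + Rux (SD, n = 3) to 144 ± 4.41 in CM (n = 3), and in no group did its samples overlap those of another member. The level of Irf5 in CM was above that of 97.4% of the 12372 genes tested. Irf4 was the least abundant of the 8 in 5 groups, from 0.814 ± 0.265 CPM per kb in DMEM (n = 2) to 2.96 ± 0.963 in CM + Rux (n = 3). In the 2 h group it stood higher, at 6.92 ± 1.94 CPM per kb (n = 2), above Irf2 at 5.45 and Irf9 at 4.56. Between these ends the order changed with the medium. Irf7 was second in DMEM at 45.3 CPM per kb and stood at 15.5 CPM per kb in DMEM + Rux, behind Irf8 at 28.5. In CM, Irf8 at 40.0 and Irf7 at 34.1 CPM per kb overlapped between samples, as did Irf3, Irf1 and Irf9 at 13.3, 12.6 and 12.6 CPM per kb.

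**Figure D1:**
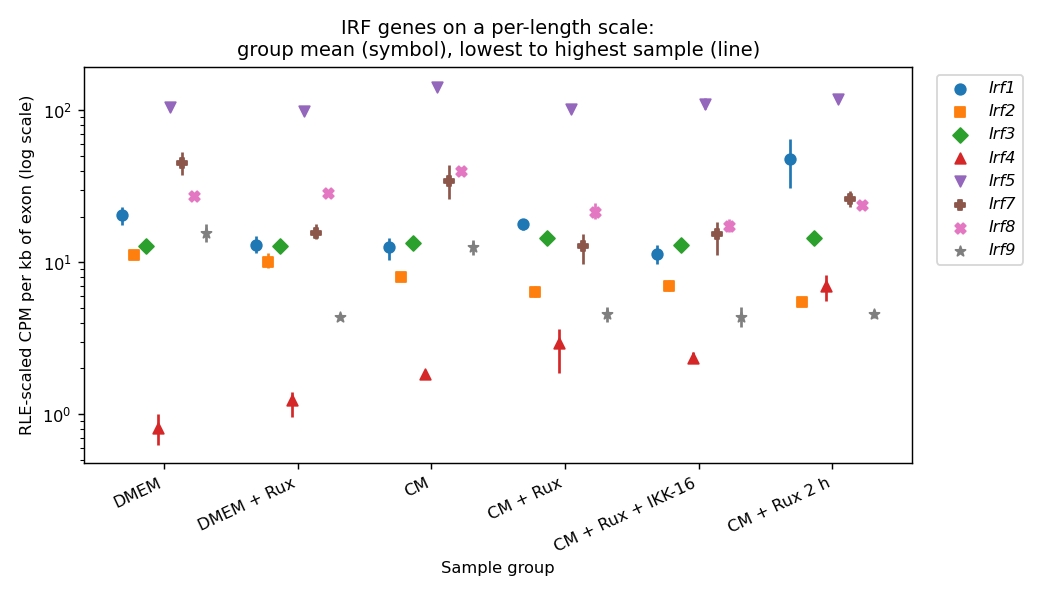
Levels of the 8 IRF genes that passed the filter, in RLE-scaled CPM per kb of exon on a log axis, by sample group. Symbols are group means and lines run from the lowest to the highest sample. Irf5 lies at the top of every group, Irf4 at the bottom of all but the 2 h group, and Irf9 drops from 15.7 and 12.6 in DMEM and CM to between 4.36 and 4.59 in the 4 groups with ruxolitinib.

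Calls rest on edgeR's quasi-likelihood test with Benjamini-Hochberg adjustment over all 12372 genes, and needed an adjusted p under 0.05 together with an absolute log2 fold change above 0.5. CM against DMEM asks what conditioned medium of 4T1 cells changes. The paper grew 4T1 cells in a medium with RPMI and does not name the base of CM. In this comparison soluble tumor factors and other differences between the media cannot be told apart. Here 2 of the 8 IRF genes were higher, beside 20.9% of all genes tested, and 1 was lower, beside 24.1%, shares close to those of genes in general. By adjusted p alone 5 of 8 passed, beside 61.8% of all genes. The scaling matters in comparisons across media: relative to total counts, RLE moved the median of all genes on the log2 scale by 0.31 for CM against DMEM. The shift was 0.30 for CM + Rux against DMEM + Rux, and -0.11 where CM + Rux + IKK-16 was set against CM. Under scaling by total counts, 1 IRF gene was higher (Irf4) and 4 were lower (Irf1, Irf2, Irf7 and Irf9) in CM against DMEM, while of all genes 1536 were higher and 4606 lower in place of 2584 and 2980. CM + Rux against CM asks what JAK inhibition changes in the presence of tumor factors. There 3 of 8 were lower, beside 2.13% of all genes. None was called higher by the main edgeR fit or DESeq2 (1.2% of all genes by edgeR). Irf4 was higher beyond the fold threshold at an unadjusted p under 0.05, and alternative edgeR fits named below called it. In DMEM + Rux against DMEM, 2 of 8 were lower, beside 0.97% of all genes. No IRF gene (0 of 8) and no gene of the whole table (0%) was called higher there by edgeR, and 0 of 8 had a positive change at an unadjusted p under 0.05. For CM + Rux + IKK-16 against CM + Rux, edgeR called 0 of 8 and DESeq2 called 1, Irf1, beside 7.74% of all genes called by edgeR (4.07% higher and 3.66% lower). At an unadjusted p under 0.05 there were 2 IRF genes, of which 1, Irf1, passed the fold threshold. By adjusted p alone 1 of 8 passed there, Irf8, beside 14.4% of all genes. The median log2 fold change over the 8 genes was -0.13 in CM against DMEM, -0.40 in CM + Rux against CM, -0.12 in DMEM + Rux against DMEM and -0.11 with IKK-16. Over all genes tested the same medians were -0.005, 0.0071, 0.010 and -0.0019. Samples of the compared groups did not overlap for 5 of 8 genes in CM against DMEM (74.8% of all genes), 6 of 8 in CM + Rux against CM (19.2%), 4 of 8 in DMEM + Rux against DMEM (18.5%) and 2 of 8 with IKK-16 (31.5%). In bulk RNA, fewer cells of a type and less RNA per cell cannot be told apart.

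**Figure D2:**
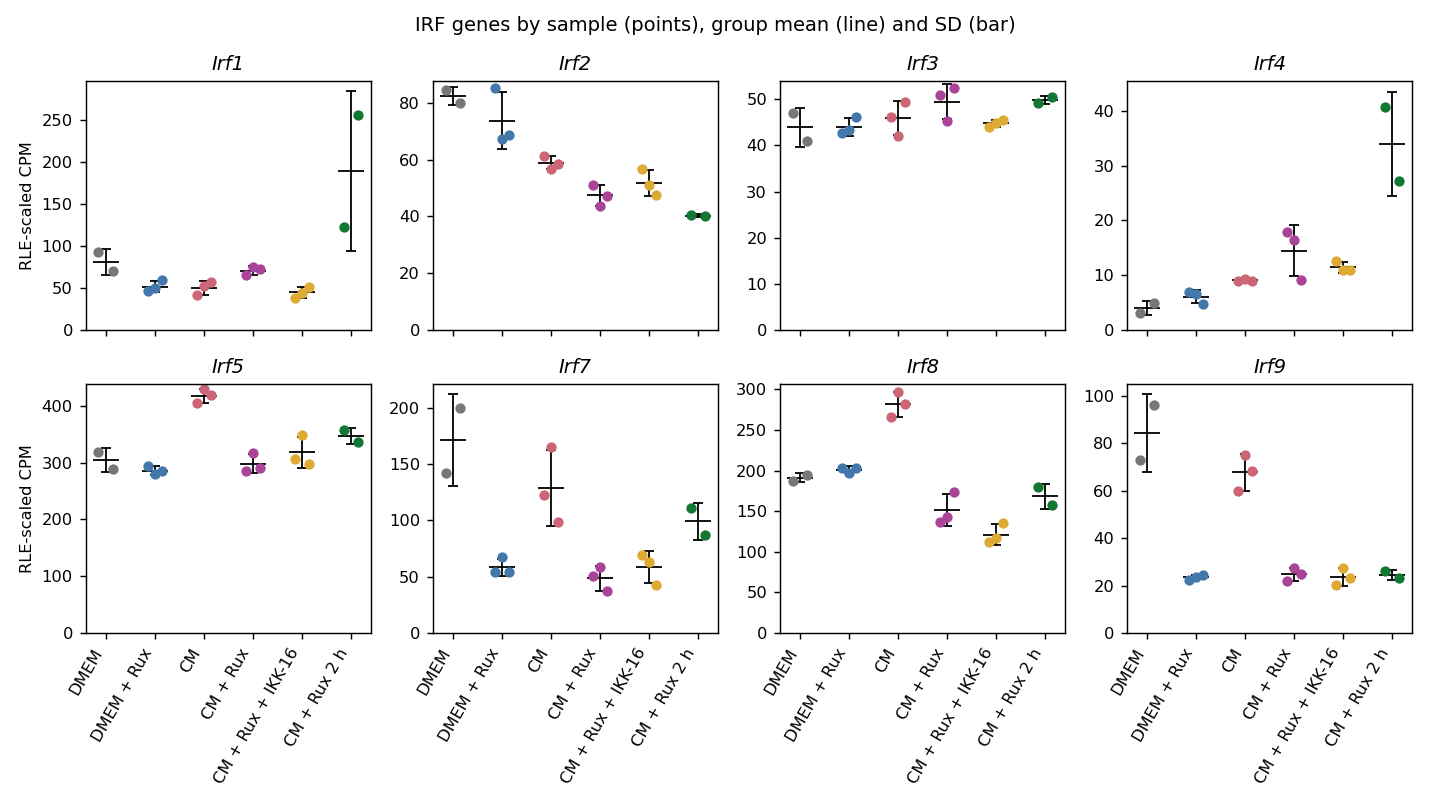
RLE-scaled CPM of the 8 tested IRF genes in the 16 samples. Each panel is 1 gene with its own linear axis from 0, points are samples, horizontal lines are group means and bars are SD. Irf9 and Irf7 are lower with ruxolitinib in both media, Irf8 is lower with ruxolitinib in CM, Irf3 varies between 40.9 and 52.4 CPM, and Irf1 and Irf4 are highest in the 2 h group.

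**Figure D3:**
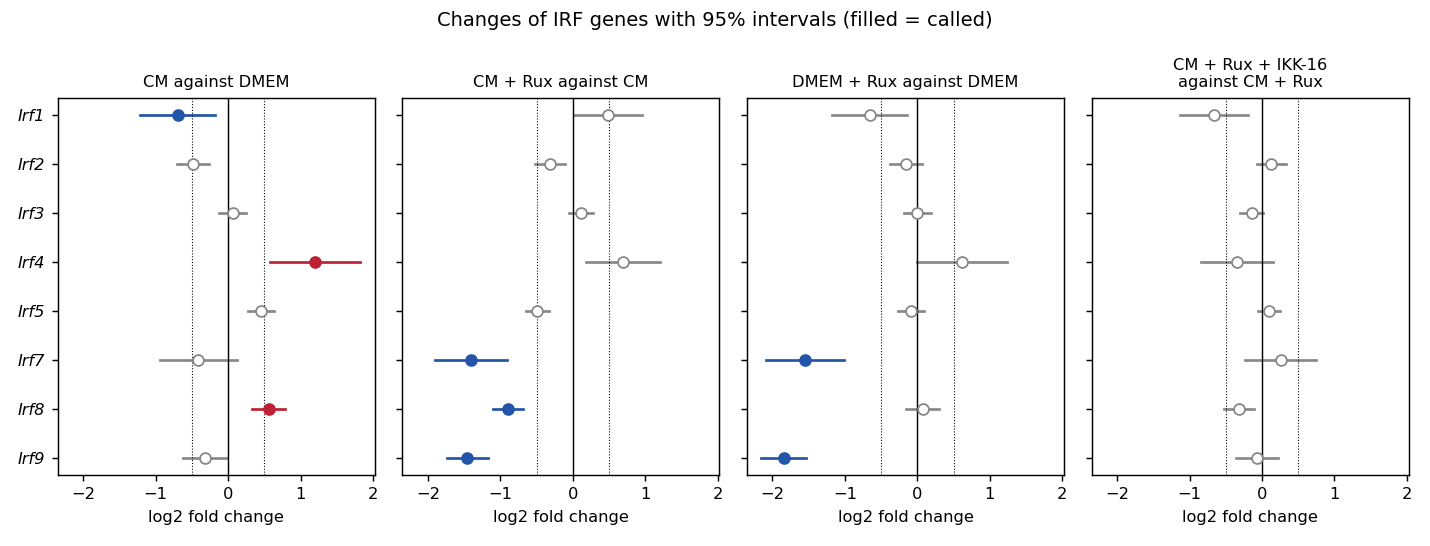
Log2 fold changes of the 8 tested IRF genes in 4 comparisons, with 95% intervals from the fitted model. Filled red and blue points were called higher or lower, open points were not called, and dotted lines mark the fold threshold of 0.5. Irf7 and Irf9 lie far below 0 in both comparisons with ruxolitinib, and Irf8 lies below 0 with ruxolitinib in CM and at 0.07 in DMEM.

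Irf9, the DNA-binding subunit of ISGF3, was lower with ruxolitinib in both media, and both calls held in every alternative run. It measured 72.8 and 96.1 CPM in DMEM and 59.8, 75.3 and 68.1 CPM in CM. With ruxolitinib the level was 22.5, 23.6 and 24.3 CPM in DMEM and 21.9, 27.4 and 24.8 CPM in CM. The samples with ruxolitinib lay below all samples without it, and the 2 media with ruxolitinib overlapped. Irf9 was thus 3.59-fold lower in DMEM + Rux than in DMEM (log2 fold change -1.84, SE 0.143, adjusted p = 7.6e-06) and 2.74-fold lower in CM + Rux than in CM (-1.46, SE 0.132, adjusted p = 4.1e-05). The difference between these effects was 0.39 on the log2 scale, with a 95% interval from -0.03 to 0.81 and an adjusted p = 0.61. CM against DMEM gave -0.31 (adjusted p = 0.068), and by total counts -0.63, where it was called (adjusted p = 0.00036). It was also called without DMEM replicate 1 (-0.50, adjusted p = 0.017). Irf9 (ENSMUSG00000002325) lies on chromosome 14 at 55603571 to 55610030 on the plus strand (GRCm38, the build of all gene positions given here), and 123 of its exon bases (2.3%) are shared with Rnf31 on the same strand, where the authors' counting left fragments out.

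Irf7 (ENSMUSG00000025498, chromosome 7, 141262706 to 141266481, minus strand), which amplifies the type I interferon response, moved with Irf9 but with a wider spread. Its level was 142 and 200 CPM in DMEM, 123, 165 and 98.3 in CM, 54.0, 67.2 and 53.9 in DMEM + Rux, and 50.3, 58.2 and 36.9 in CM + Rux. In both media every sample with ruxolitinib was below every sample without it, and DMEM and CM overlapped. Irf7 was 2.93-fold lower with ruxolitinib in DMEM (-1.55, SE 0.249, adjusted p = 0.0037) and 2.65-fold lower in CM (-1.41, SE 0.230, adjusted p = 0.0025). The first of these calls was lost without DMEM replicate 2, where the change was -1.28 (adjusted p = 0.064). CM against DMEM gave -0.41 (adjusted p = 0.17), and -0.73 by total counts, where it was called (adjusted p = 0.013), as it was without CM replicate 2 (-0.63, adjusted p = 0.047). In CM + Rux against DMEM + Rux the change was -0.27 (adjusted p = 0.32), and by total counts -0.57 and called (adjusted p = 0.028). Across the 16 samples the log2 levels of Irf7 and Irf9 had a Pearson's r of 0.84, given as a description since the samples share groups. The genes most like Irf7 over the 16 samples were Oas3 (r = 0.98), Oas1a (0.94) and Sp100 (0.94), and those most like Irf9 were Oas2 (0.99), Rtp4 (0.98) and Irgm2 (0.98). The Oas genes encode sensors of viral RNA.

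Irf3 (ENSMUSG00000003184, chromosome 7, 44997648 to 45002848), which is activated by phosphorylation of protein already present, had the narrowest range for its level. Its levels ran from 40.9 to 52.4 CPM over all 16 samples, and each group overlapped the next in the order of means, from 43.9 CPM in DMEM to 49.8 in the 2 h group. It was not called in any of the 9 comparisons. In CM + Rux against CM its change was 0.11 with a 95% interval from -0.06 to 0.27 (adjusted p = 0.60), and in CM against DMEM 0.06 with an interval from -0.12 to 0.25 (adjusted p = 0.55).

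The 250 bases before the start site of the IRF genes were searched for motifs because several members moved together. Sequences are those of RefSeq on GRCm38.p6, which gave 11 windows for the 8 tested genes. The motifs were the ISRE core, which is GAAA and a second GAAA after any 2 bases, the STAT site (GAS) TTCNNNGAA and the κB consensus of NF-κB, each on both strands. They occur in 2.98%, 7.02% and 3.9% of all 32851 windows of this length. A match describes the letters only, and no match says nothing of the factor. Irf7, the member most reduced by ruxolitinib after Irf9, had none of the 3 motifs in its window, and Irf9 had none in its 2 windows. The windows of Irf3, Irf4 and Irf5 held none either. The Irf7 window is shown for its lack of matches (chr7:141266425-141266674, minus strand), and those of Irf1 (chr11:53769764-53770013), Irf2 (chr8:46739495-46739744) and Irf8 (chr8:120736108-120736357), all on the plus strand, for their matches, printed 5′ to 3′ with the matches in capitals.
Irf7: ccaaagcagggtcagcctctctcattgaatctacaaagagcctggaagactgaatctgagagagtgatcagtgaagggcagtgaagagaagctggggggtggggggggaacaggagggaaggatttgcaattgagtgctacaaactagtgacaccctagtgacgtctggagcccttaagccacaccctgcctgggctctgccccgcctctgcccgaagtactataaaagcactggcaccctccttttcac
Irf1: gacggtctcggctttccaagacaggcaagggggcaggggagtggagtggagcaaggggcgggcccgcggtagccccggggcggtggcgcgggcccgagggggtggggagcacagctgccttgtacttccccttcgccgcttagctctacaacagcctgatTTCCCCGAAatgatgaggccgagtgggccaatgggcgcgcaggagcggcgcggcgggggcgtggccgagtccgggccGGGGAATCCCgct
Irf2: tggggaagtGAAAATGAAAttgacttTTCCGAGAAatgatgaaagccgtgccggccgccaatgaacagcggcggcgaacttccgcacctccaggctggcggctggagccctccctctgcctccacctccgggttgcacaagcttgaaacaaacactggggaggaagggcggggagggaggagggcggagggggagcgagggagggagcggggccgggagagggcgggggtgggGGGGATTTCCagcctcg
Irf8: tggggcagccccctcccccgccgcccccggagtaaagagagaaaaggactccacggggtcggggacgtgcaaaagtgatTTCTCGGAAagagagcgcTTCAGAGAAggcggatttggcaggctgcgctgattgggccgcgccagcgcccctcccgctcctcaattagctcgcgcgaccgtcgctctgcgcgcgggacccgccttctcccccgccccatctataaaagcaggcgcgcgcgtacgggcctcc
In Irf1 the capitals mark a GAS, TTCCCCGAA, starting 90 bases before the start site, and a κB match, GGGGAATCCC, starting 13 bases before it. In Irf2 they mark an ISRE core, GAAAATGAAA, at 241 bases, a GAS, TTCCGAGAA, at 224 bases and a κB match, GGGGATTTCC, at 17 bases. In Irf8 they mark a pair of GAS matches, TTCTCGGAA at 171 and TTCAGAGAA at 153 bases. Irf1 and Irf8 have a second start site each, whose windows held no match.

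Genes around IRF3, IRF7 and IRF9 were described with hand-written lists. Of the 20 interferon ligand genes in the table none passed the filter, and the highest count in any sample was 7, for Ifnb1 in DMEM. Among 9 interferon receptor and ISGF3 genes, 2 were lower with ruxolitinib in each medium, beside 0.97% of all genes in DMEM and 2.13% in CM. Stat2, a subunit of ISGF3, was among them (-1.46 in DMEM, -0.85 in CM). In CM against DMEM 5 of the 9 were higher and 1 lower, beside 20.9% and 24.1% of all genes. With total counts each log2 change in that comparison would be lower by the shift given above. The kinase gene Jak2 rose by 3.59 on the log2 scale, the receptor genes Ifnar1 by 1.66, Ifngr2 by 1.01 and Ifnar2 by 0.82, and Jak1 by 0.69, while Ifngr1 changed by -0.75. The list median was 0.69 in this comparison, -0.09 with ruxolitinib in CM and -0.12 in DMEM. With IKK-16, 1 of the 9 was lower (Jak2, -0.81), beside 3.66% of all genes.

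Known targets of IRF3, IRF7 and ISGF3 were mostly lower with ruxolitinib. In DMEM 20 of 22 were lower, beside 0.97% of all genes, with a median of -3.48 and the largest change in Cxcl10, a chemokine (-5.81). In CM 15 of 22 were lower, beside 2.13% of all genes, with a median of -2.37 and the largest change in Ifit3, an antiviral protein gene (-4.06). CM alone lowered 8 and raised 1, beside 24.1% and 20.9% of all genes, with a median of -0.62. The lowest was again Ifit3 (-3.25), which stood at 33.8 and 74.4 CPM in DMEM and between 3.51 and 8.71 CPM in CM, and the one raised was the chemokine gene Ccl5 (5.70). IKK-16 lowered 2 of 22, beside 3.66% of all genes, Mx1 the most (-2.20), with a median of -0.25. Against CM, the group with both inhibitors had 21 of 22 lower, beside 6.13% of all genes, with a median of -2.76. Upstream, of 18 genes that activate IRFs, CM raised 5 and lowered 3, which is near the shares of all genes (20.9% and 24.1%). They ran from Ikbke, which encodes the kinase IKKε (1.12), to Slc15a4, a lysosomal transporter needed for IRF5 activation (-1.83), with a median of 0.24. Ruxolitinib lowered 3 of the 18 in DMEM, beside 0.97% of all genes. In CM it lowered 2, beside 2.13%, and raised 1, beside 1.2%. The RNA sensor gene Ddx58 was the lowest in both (-2.14 and -2.04), Ticam2, an adaptor of TLR4, was the one raised (0.91), and the medians were -0.13 and -0.08. With IKK-16 edgeR and DESeq2 each called 0 of the 18, beside 7.74% of all genes called by edgeR. Of the 18, 7 had an unadjusted p under 0.05 in edgeR, and the median was 0.09.

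Irf8 (ENSMUSG00000041515, chromosome 8, 120736358 to 120756694), which acts in the monocyte lineage, was the one member called for a difference between the media in its response to ruxolitinib. Its level was 187 and 195 CPM in DMEM and 204, 197 and 204 in DMEM + Rux. In CM it was 267, 297 and 282 CPM, and in CM + Rux 137, 143 and 174. CM was the highest group, with no overlap with any other, and CM + Rux lay below both DMEM groups. Irf8 was 1.47-fold higher in CM than in DMEM (0.56, SE 0.108, adjusted p = 0.00047) and 1.86-fold lower in CM + Rux than in CM (-0.90, SE 0.0957, adjusted p = 0.00012). In DMEM ruxolitinib gave 0.07, with a 95% interval from -0.15 to 0.30 (adjusted p = 1). The test of the difference between these effects gave -0.97 (SE 0.144, adjusted p = 0.012). It was the one IRF gene of 8 called there, with a lower value, as were 0.178% of all genes. Without DMEM replicate 1 the difference was -0.94 with an adjusted p = 0.069. The rise in CM rests on the scaling, since by total counts it was 0.25 (adjusted p = 0.053). In CM + Rux against DMEM + Rux the change was -0.41 (adjusted p = 0.0016), under the fold threshold, and -0.71 by total counts, where it was called (adjusted p = 1.3e-05), as it was without CM + Rux replicate 3 (-0.52, adjusted p = 0.00023). With IKK-16 added the samples were at 112, 117 and 136 CPM, below all 3 samples of CM + Rux. This change, -0.32, had an adjusted p = 0.038 but was under the fold threshold. Against CM, Irf8 was 2.32-fold lower with both inhibitors (-1.22, SE 0.0963, adjusted p = 3.5e-06). The most similar genes were Tnfrsf1a, a TNF receptor (r = 0.92), Rab31 (0.90) and Isyna1 (0.88). Of the other members, the difference between the effects of ruxolitinib was 1.14 for Irf1 and -0.40 for Irf5, each at an unadjusted p under 0.05. The main edgeR fit called neither, but Irf1 was called with no filter, with the block and by DESeq2.

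Irf1 (ENSMUSG00000018899, chromosome 11, 53770014 to 53778374), an interferon-responsive activator, measured 92.4 and 70.4 CPM in DMEM, 45.8, 50.2 and 59.0 in DMEM + Rux, 41.2, 52.4 and 57.1 in CM, and 65.0, 74.6 and 72.3 in CM + Rux. CM and DMEM + Rux overlapped below both DMEM samples, and CM + Rux overlapped DMEM. Irf1 was lower in CM than in DMEM (-0.70, SE 0.241, adjusted p = 0.022), a call that was lost without CM replicate 1 (-0.57, adjusted p = 0.078) or DMEM replicate 1 (-0.49, adjusted p = 0.19). Ruxolitinib gave -0.66 in DMEM (adjusted p = 0.64, or 0.029 and called with no filter on low counts) and 0.49 in CM (adjusted p = 0.30), with no overlap between groups in either medium. The difference of these effects was 1.14 (SE 0.325, adjusted p = 0.16). With the replicate number as a block it was 1.30 and was called (adjusted p = 0.011). With IKK-16 the samples were at 38.5, 44.5 and 51.3 CPM, all below CM + Rux. That change was -0.66 (SE 0.218, adjusted p = 0.060), and -0.68 with the block, where it was called (adjusted p = 0.0091). Exons of Irf1 share 796 bases with Gm17334 on the opposite strand, a gene with 1 count in all samples together. The most similar genes were B230216N24Rik (r = 0.94), Icam5 (0.92) and E2f8 (0.91).

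Irf2 (ENSMUSG00000031627, chromosome 8, 46739732 to 46847458), which competes with IRF1 for its sites, was highest in DMEM at 80.1 and 84.6 CPM and lowest in the 2 h group at 40.0 and 40.6 CPM. It ranged from 56.8 to 61.4 CPM in CM, from 43.8 to 51.3 in CM + Rux and from 67.4 to 85.3 in DMEM + Rux. The samples in CM were below those in DMEM without overlap, with and without ruxolitinib. The change was -0.64 in CM + Rux against DMEM + Rux (SE 0.0941, adjusted p = 3.8e-05), where it was called. In CM against DMEM the change was -0.48 (SE 0.104, adjusted p = 0.0011), just under the fold threshold, and by total counts it was -0.79 and called (adjusted p = 8.5e-05). Without CM replicate 1 or DMEM replicate 2 it was -0.51 and -0.52, just past that threshold. Ruxolitinib in CM gave -0.31 (adjusted p = 0.084). Genes closest to Irf2 were Dop1a (r = 0.94), Cic (0.94) and Otub2 (0.93). CM + Rux against DMEM + Rux called 1 IRF gene higher, beside 22.3% of all genes, and 1 lower, beside 25%, with no overlap for 4 of 8 (70% of all genes). The one higher was Irf4.

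Among 19 tested genes known as targets of IRF1 and IRF8, CM raised 9 and lowered 1, beside 20.9% and 24.1% of all genes, with a median of 0.44. Nos2, the inducible nitric oxide synthase, rose by 8.99 on the log2 scale, Il12b was at least 84.8-fold higher against a floor of 3 counts per sample, and Ciita, the activator of MHC class II genes, was the one lowered (-0.89). Ruxolitinib lowered 2 of the 19 in CM, beside 2.13% of all genes, with a median of -0.12. The larger change was in Tap1 (-0.81), a peptide transporter for MHC class I. In DMEM ruxolitinib lowered 4 of the 19, beside 0.97% of all genes, the GTPase gene Gbp5 the most (-3.31). The median was -0.27, or -0.31 with Nos2 at the bound that 3 counts per sample give and Il12b, at or under that limit in both groups, left out. IKK-16 lowered 5 of the 19, beside 3.66% of all genes, with a median of -0.29 and the largest change in Il12b (-3.11), a subunit of interleukin-12 and interleukin-23.

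Irf4 (ENSMUSG00000021356, chromosome 13, 30749226 to 30766976), which acts in alternative polarisation of macrophages, was low but rose with CM. It measured 3.07 and 4.91 CPM in DMEM, 8.85 to 9.30 in the 3 samples of CM, 6.88, 6.59 and 4.70 in DMEM + Rux, and 17.9, 16.5 and 9.11 in CM + Rux. Both DMEM groups lay below all CM groups, and CM + Rux replicate 3 lay within the range of CM. Irf4 was 2.29-fold higher in CM than in DMEM (1.20, SE 0.292, adjusted p = 0.0027) and 2.42-fold higher in CM + Rux than in DMEM + Rux (1.28, SE 0.241, adjusted p = 0.00033). Without DMEM replicate 1 the first of these was 0.88 (adjusted p = 0.052). Ruxolitinib in CM gave 0.69 (SE 0.237, adjusted p = 0.13). The block called this change (0.66, adjusted p = 0.027), as did no filter on low counts (0.69, adjusted p = 0.012). Leaving out CM + Rux replicate 3 called it as well (0.92, adjusted p = 0.025). In DMEM the change was 0.61 (adjusted p = 0.99), and the difference of the effects was 0.08, with a wide 95% interval from -0.73 to 0.88. Across samples Irf4 was most like Hsf2 (r = 0.97), Reps1 (0.95) and Fosb (0.95) and ran against Irf2 (r = -0.87).

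The targets of IRF4 in macrophages rose with CM, with 8 of 10 tested higher and 1 lower, beside 20.9% and 24.1% of all genes, and a median of 5.72. The chemokine gene Ccl17 had no count in DMEM and 17.4 to 30.4 CPM in CM, at least 237-fold higher against a floor of 3 counts per sample. Arg1, which encodes arginase, was at least 295-fold higher on the same floor. Kmo, of tryptophan metabolism, was the one lowered (-3.05). Ruxolitinib in CM lowered 5 of the 10, beside 2.13% of all genes, with a median of -1.24 and the largest change in Pdcd1lg2, which encodes the checkpoint ligand PD-L2 (-2.64). In DMEM edgeR and DESeq2 called 0 of the 10, beside 0% higher and 0.97% lower of all genes by edgeR. Of the 10, 0 had an unadjusted p under 0.05 in edgeR, and the median was -0.08. IKK-16 lowered 2, beside 3.66% of all genes, with a median of -0.36 and the largest change in Ccl22 (-1.24), a chemokine. Irf4 itself stood at 9.05 ± 0.231 CPM in CM and 14.5 ± 4.72 in CM + Rux (SD, n = 3), a rise that was not called, while the list median fell. A link between Irf4 and this list was not tested.

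IRF4 and IRF8 bind many sites with partner proteins, and of 8 tested partner genes CM raised 5, beside 20.9% of all genes, with a median of 0.88. Batf rose by 2.98, Junb by 2.23, Etv6 by 1.42, Batf3 by 0.99 and Jund by 0.76 on the log2 scale. Ruxolitinib in CM lowered 1 of the 8, Batf2 (-0.77), beside 2.13% of all genes, with a median of -0.14. In DMEM edgeR and DESeq2 called 0 of the 8, beside 0% higher and 0.97% lower of all genes by edgeR. Of the 8, 2 had an unadjusted p under 0.05 in edgeR, and the median was -0.11. IKK-16 lowered 2 of the 8, Batf (-1.01) and Jund (-0.53), beside 3.66% of all genes. It raised 1, Jun (0.54), beside 4.07%, and the list median was -0.48. Batf measured 5.53 and 7.24 CPM in DMEM, 41.5 to 59.7 in CM, 47.9 to 71.4 in CM + Rux and 23.6 to 37.4 with IKK-16 added.

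Irf5 (ENSMUSG00000029771, chromosome 6, 29526625 to 29541871), the most abundant member, measured 319 and 289 CPM in DMEM, 404, 430 and 419 in CM, 295, 279 and 284 in DMEM + Rux and 285, 317 and 291 in CM + Rux. CM stood above every other group without overlap, and the others overlapped their neighbours in the order of means. With all samples its changes stayed under the fold threshold. CM against DMEM gave 0.46 (SE 0.0826, adjusted p = 0.00028), and 0.53 without DMEM replicate 1. Among the alternatives that kept all samples this change went down to 0.15. RLE in place of total counts moved this comparison by 0.31, so the size of the rise depends on the scaling. CM + Rux against CM gave -0.49 (SE 0.0732, adjusted p = 0.0014), and leaving out CM replicate 1 (-0.51) or CM + Rux replicate 2 (-0.53) made it a call. In DMEM ruxolitinib gave -0.09, with a 95% interval from -0.26 to 0.09, and the difference of the effects was -0.40 (adjusted p = 0.14). IKK-16 gave 0.10, with an interval from -0.06 to 0.25. Steap4 (r = 0.92), Ambp (0.91) and Lfng (0.91) were most like Irf5. The overlap of 411 exon bases with Tnpo3 is on the opposite strand, and the counting used strand.

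All 8 listed targets of IRF5, inflammatory cytokine and chemokine genes, were higher in CM, beside 20.9% of all genes, with a median of 5.78. Il6, which encodes interleukin-6, was at 143 to 346 CPM in CM and had no count in DMEM, which makes it at least 2069-fold higher on the same floor. With ruxolitinib in CM edgeR and DESeq2 called 0 of the 8, of which 3 had an unadjusted p under 0.05 in edgeR, and the median was 0.47. In DMEM both tools called 0, beside 0% higher and 0.97% lower of all genes by edgeR, and 0 had an unadjusted p under 0.05. The median was -0.18, or -0.69 when the 3 genes at or under the floor in both groups are left out. IKK-16 lowered 6 of the 8, beside 3.66% of all genes, with a median of -1.76 and the largest change in Il23a (-3.20), a subunit of interleukin-23. The level of Irf5 itself was 298 ± 16.7 CPM in CM + Rux and 318 ± 27.5 with IKK-16 (SD, n = 3).

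Of 10 genes whose proteins hold IRFs or their signals in check, CM raised 6, beside 20.9% of all genes, and lowered 2, near the 24.1% of all genes, with a median of 0.63. The JAK inhibitors Socs3 and Socs1 rose by 7.54 and 4.32, and the IRF2-binding proteins Irf2bpl and Irf2bp2 by 2.07 and 1.10, and Ptpn11 rose by 0.64. Usp18, which damps the interferon receptor (-1.02), and Trim21 (-0.67) were lower. Ruxolitinib lowered Usp18 in both media (-3.25 in CM, -2.89 in DMEM). It also lowered Irf2bpl in CM (-0.70) and Socs1 and Trim21 in DMEM (-1.76 and -0.66). These were 2 of the 10 in CM, beside 2.13% of all genes, and 3 in DMEM, beside 0.97%. The list medians were -0.19 in CM and -0.11 in DMEM. IKK-16 lowered 2 of the 10, Socs1 (-1.56) and Trim21 (-0.67), beside 3.66% of all genes, with a median of -0.20. Socs1 stood at 17.8 to 18.9 CPM in CM, 14.4 to 16.5 in CM + Rux and 4.38 to 5.68 with IKK-16.

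Against CM alone, the group with both inhibitors had 3 IRF genes lower, beside 6.13% of all genes, and 6 of 8 without overlap (37.9% of all genes). They were Irf9 (-1.53, SE 0.132, adjusted p = 8e-06), Irf8 as above and Irf7 (-1.15, SE 0.228, adjusted p = 0.0028). Irf7 stood at 69.5, 62.6 and 42.3 CPM and Irf9 at 20.3, 27.4 and 23.0 CPM in this group, each overlapping CM + Rux. Irf4 was at 12.6, 10.9 and 10.9 CPM, within the range of CM + Rux. The comparisons with CM + Rux and with CM share samples, so their values are given side by side.

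The 2 h group differed from the others mainly in Irf1 and Irf4. Irf1 was 122 and 257 CPM, above every other sample, and Irf4 was 40.7 and 27.2 CPM, likewise above every other sample. CM held no ruxolitinib and has no time label, so in the comparison with CM the drug and the 2 h label cannot be told apart. Against CM, 2 IRF genes were higher, beside 14.6% of all genes, and 3 lower, beside 13.3%, with no overlap for 6 of 8 (63.3%). Irf1 was 3.76-fold higher (1.91, SE 0.240, adjusted p = 3.2e-05) and Irf4 3.76-fold higher (1.91, SE 0.257, adjusted p = 5.6e-05). Without 2 h replicate 3 the change of Irf1 was 1.28, and it was still called. Irf9, at 26.1 and 23.0 CPM, was lower by 1.46 on the log2 scale (adjusted p = 7.2e-06), and Irf8, at 179 and 158 CPM, by 0.74 (adjusted p = 0.00011). Irf2 changed by -0.55 (adjusted p = 0.0011), or by -0.49 with the block, which is under the fold threshold. Irf5, at 357 and 336 CPM, changed by -0.27 (adjusted p = 0.017), also under it.

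Compared with CM + Rux of the 4 h label, the 2 h group had 3 IRF genes higher, beside 12.6% of all genes, with no overlap for 5 of 8 (59.6%). Irf1 was higher by 1.42 (SE 0.238, adjusted p = 0.00043), or by 0.79 without 2 h replicate 3 (adjusted p = 0.011). Irf4 was higher by 1.22 (SE 0.251, adjusted p = 0.0018). Irf7, at 111 and 87.4 CPM, was higher by 1.03 (SE 0.250, adjusted p = 0.0054), but not without 2 h replicate 2 (0.84, adjusted p = 0.062). The change of Irf9 was -0.0046, with a 95% interval from -0.32 to 0.32. Markers of dendritic cells did not move as a set in this group. Their summed level over 9 genes, of which 2 passed the filter, was 9.67 and 14.2 CPM in the 2 h group and 1.15 to 3.83 CPM elsewhere. Most of it was Zbtb46, at 7.95 and 12.3 CPM against 0.647 to 2.09 CPM elsewhere, while Flt3 had no count in the 2 h group. Siglech was also highest there, at 0.409 and 0.552 CPM. Dpp4 was at 0.304 and 0.351 CPM, above CM (0.0556 to 0.122) and CM + Rux (0.0509 to 0.194), and reached 0.335 CPM in DMEM + Rux. In the 2 h group Ccr9, at 0.414 and 0.76 CPM, was below CM + Rux (1.08 to 1.27 CPM). Clec9a reached at most 0.0552 CPM there and 0.246 CPM in DMEM. The part of these markers in the levels of Irf1 and Irf4 was not tested. The 2 h label and any other difference between these preparations cannot be told apart. In the 2 h group against CM, 19 of 22 targets of IRF3, IRF7 and ISGF3 were lower, with a median of -1.93, and of 19 targets of IRF1 and IRF8 2 were higher and 3 lower, with a median of -0.02. Of the IRF4 targets 6 of 10 were lower, with a median of -2.12, and of the IRF5 targets 4 of 8 were lower and 1 higher, with a median of -0.78. The median of all genes was -0.02, and 14.6% of them were higher and 13.3% lower.

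**Figure D4:**
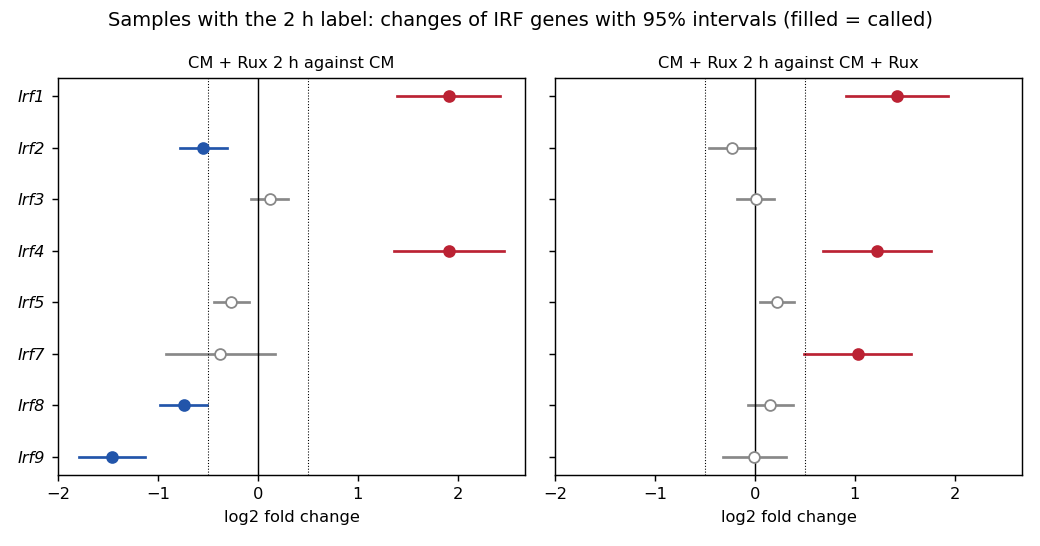
Log2 fold changes of the 8 tested IRF genes in the samples labelled 2 h, against CM on the left and against CM + Rux of the 4 h label on the right, with 95% intervals from the fitted model. Filled points were called and dotted lines mark the fold threshold of 0.5. Irf1 and Irf4 lie above 0 in both panels, while Irf9 is at -1.46 on the left and at -0.0046 on the right.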

How the data were processed

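RNA of 16 BMDM samples was sequenced from stranded libraries, and the authors deposited whole-number counts of fragments per gene. Per the labels, reads were processed with Trimmomatic 0.33, HISAT2 2.1.0 and featureCounts 1.6.2 on GRCm38. Per the file headers, featureCounts was run on the Ensembl 100 annotation with reverse strand, both ends mapped and a mapping quality of at least 10. No option to count fragments with several alignments or several genes was set, which lowers genes that share exons or have near copies. Symbols were matched for 55141 of 55487 identifiers from a GENCODE M21 table. The 346 others hold at most 0.0459% of a sample's counts.

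From these counts, the 12372 genes with more than 1 CPM in 2 or more samples were scaled by RLE and fitted with edgeR 4.0.16 (quasi-likelihood, limma 3.58.1, R 4.3.3) in 1 model of 6 groups. The thresholds are those of the study's methods. The script was tested on simulated data and recovered 98.5% of 200 changed genes in CM against DMEM, 99.5% in CM + Rux against CM and 96.5% in DMEM + Rux against DMEM, each among 12372 genes. The changes put in were all 2-fold, in genes above a further cut on mean CPM. Samples were drawn with no effect of the replicate number. How well smaller changes or lower genes are recovered was not tested. Samples with the same replicate number deviated together in all 20 pairs between groups that are compared here (r = 0.163 to 0.717), so the numbers were taken to pair the samples, and a fit with the number as a block was an alternative. Replicates of a group differed beyond sampling noise, since chi-square divided by its degrees of freedom was 14.2 to 54.4. Pairs from different groups were not compared in this way. Depth, 18449388 to 46215853 counts, sets the precision of low genes such as Irf4. Other alternatives were TMM, scaling by total counts, no filter, filterByExpr, a model of only the groups compared, DESeq2 1.42.0, no fold threshold and fits without 1 sample. Similarity was Pearson's r of log2(CPM + 0.5) over 16 samples. The IRF genes are described in every comparison. List genes are given by counts and medians, with the largest called change named, and by name where called in lists of 10 or fewer genes (some items are not reported here), except that targets of IRF4 and IRF5 are given by their largest changes. The IRF genes and the lists were chosen with earlier results of these data known. Il12b, Ccl5 and Usp18 are each in 2 lists. Python 3.11.15 served for sequences, lists and figures.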

Additional observations from a re-analysis of the deposited data

Results flagged for a closer look

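The effect of ruxolitinib on Irf8 differed between CM and DMEM in the test of the difference itself. The difference was -0.97 on the log2 scale in edgeR's quasi-likelihood test, from a change of -0.90 in CM and 0.07 in DMEM, and its adjusted p = 0.012. In CM 3 of 3 samples with ruxolitinib were below all samples without it. Over the alternatives of that result the adjusted p reached at most 0.069. Groups of 2 and 3 samples are too small for a test of single outlying samples.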

How the results depend on the processing

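Of 22 calls of IRF genes, 15 held in every alternative run and none changed sign. The number of IRF genes called in CM against DMEM went from 3 to 5 by total counts (1 higher, 4 lower) and to 5 without the fold threshold. It went from 0 to 1 with IKK-16 added to CM + Rux under no filter, the block, only the groups compared, DESeq2 and no fold threshold, from 1 to 2 for the difference between the effects of ruxolitinib under no filter, the block and DESeq2, and from 2 to 4 in CM + Rux against DMEM + Rux by total counts. Leaving out 1 sample gave 1 to 2 calls in DMEM + Rux against DMEM (1 without DMEM replicate 2) and 0 to 1 for the difference of effects (0 without DMEM replicate 1). The replicate block changed no call beyond those given for Irf1, Irf2 and Irf4. Unless another fit is named, p-values, calls and shares of all genes are from the fit without the block. With the block, 305 of all genes were higher and 440 lower in CM + Rux against CM, in place of 149 and 263. For the difference between the effects of ruxolitinib the counts were 247 and 197, in place of 29 and 22.

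Only changes that were not called turned in sign. By total counts they were Irf3 in CM against DMEM (-0.25), in CM + Rux against DMEM + Rux (-0.13), in CM + Rux + IKK-16 against CM (0.0703) and in 2 h against CM + Rux (-0.0627), Irf9 with IKK-16 (0.0178) and in CM + Rux against DMEM + Rux (-0.23), and Irf5 in the latter (-0.25). For Irf3 in DMEM + Rux against DMEM they were no filter (-9e-04), filterByExpr (-4e-04), the block (-0.025) and only the groups compared (-0.0049). The block turned the difference of effects of Irf4 (-0.0853) and Irf7 (-0.0089), and TMM (0.0089) and only the groups compared (0.0133) that of Irf9 in 2 h against CM + Rux. With 1 sample left out the ranges were, for Irf3, -0.0328 to 0.16 in CM against DMEM, -0.0921 to 0.10 in DMEM + Rux against DMEM, -0.10 to 0.0201 in CM + Rux + IKK-16 against CM and -0.0555 to 0.0495 in 2 h against CM + Rux. For Irf9 they were -0.19 to 0.03 with IKK-16, -0.01 to 0.16 in CM + Rux against DMEM + Rux and -0.11 to 0.0782 in 2 h against CM + Rux, and for the difference of effects -0.28 to 0.39 in Irf4 and -0.12 to 0.37 in Irf7. The cause of these turns was not tested. Where 1 sample of a group of 2 is left out, the other is assumed to vary like the other groups.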
